A study of Homo sapiens with 6 samples.

Results

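The 10 genes described here encode the 5 subunits of the transcription factor NF-kB (RELA, RELB, REL, NFKB1 and NFKB2) and 5 of its feedback inhibitors and regulators (NFKBIA, NFKBIB, NFKBIE, TNFAIP3 and BIRC3). They were taken by gene symbol from an expression table of 17039 genes, and all 10 were found and tested. Poly(A) RNA was sequenced from 3 libraries of MDA-MB-231-BR cells and 3 libraries of MDA-MB-231 cells. MDA-MB-231 is an established human triple-negative breast cancer line, and MDA-MB-231-BR is its variant that homes to the brain. According to the labels, MDA-MB-231-BR cells were kept in DMEM with 10% fetal bovine serum, penicillin-streptomycin and 200 μg/mL of the antibiotic G418, whereas the medium of MDA-MB-231 cells is given with the same serum and antibiotics but no G418. No cytokine or other stimulus is given for either line. The MDA-MB-231-BR cells were obtained from another laboratory and the MDA-MB-231 cells from a repository, so the origin of the culture, the G418 and the cell line cannot be told apart.

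NF-kB is a family of dimers. In resting cells the dimers are held in the cytoplasm by IkB proteins, which mask their nuclear localisation signals. In the canonical branch, receptors of TNF, interleukin-1 and bacterial products activate the IkB kinase complex, IkB is degraded, and dimers of p50 (from NFKB1) with RELA or REL enter the nucleus. In the noncanonical branch the kinase NIK leads to processing of the NFKB2 product to p52, which pairs with RELB. Many of the factor's own genes are among its targets, NFKBIA (IkB alpha) and TNFAIP3 (the ubiquitin-editing enzyme A20) being the textbook examples, and this gives the pathway its negative feedback. RNA levels do not show where a dimer is in the cell, and neither proteins nor nuclear localisation were analysed here.

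Expression was given as FPKM, the fragments assigned to a gene scaled to the length of its transcript and to the size of the library, so levels of different genes can be set side by side. For the comparison of the lines log2(FPKM + 0.1) was fitted with limma, keeping the 13465 genes whose mean FPKM reached 0.1. A gene was called when its p, adjusted by Benjamini-Hochberg over all these genes, was under 0.05, and the fold changes below put MDA-MB-231-BR over MDA-MB-231 on that log2 scale. The depth of the libraries is unknown from FPKM. The summed FPKM ran from 465020 to 472007 in MDA-MB-231-BR and from 486937 to 496420 in MDA-MB-231 libraries. The lowest correlation between libraries of the same line was 0.997. The lines differed broadly: 77.3% of all genes tested were called, 32.9% lower and 44.4% higher in MDA-MB-231-BR cells, with a median log2 fold change of 0.08. A stricter rule, a call with an absolute log2 fold change over 1, was met by 15.2% of the genes, 4.34% lower and 10.9% higher. Vimentin, CD44, keratin 8 and keratin 18 were abundant in every library. Vimentin was called higher (log2 fold change 0.15), and CD44 (-0.47), keratin 8 (-0.43) and keratin 18 (-0.37) were called lower. EPCAM averaged 8.70 FPKM in MDA-MB-231-BR and 5.06 FPKM in MDA-MB-231 cells and was called higher (0.77). Of the receptor genes low in triple-negative tumours PGR stayed under 0.1 FPKM and ESR1 ran from 0.74 to 1.08 FPKM. ERBB2 had 9.81, 10.23 and 9.61 FPKM in MDA-MB-231-BR and 5.02, 4.75 and 5.08 FPKM in MDA-MB-231 cells, and was called higher (0.98). Leukocyte markers (3 measured of 5) summed to 0.31 FPKM at most. Endothelial markers (4 measured of 4) summed to 0.66 to 0.85 FPKM in MDA-MB-231 and 1.80 to 2.14 FPKM in MDA-MB-231-BR cells, and fibroblast markers (4 measured of 5) to 0.94 to 1.03 and 0.55 to 0.58 FPKM. Brain cell markers (5 measured of 5) summed to 13.01 to 14.48 and 21.06 to 21.48 FPKM, nearly all of it from MBP, with GFAP and AQP4 at or near 0.

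Of the 10 genes, 9 were called lower in MDA-MB-231-BR cells, 0 were called higher, and NFKB1 was not called, where 32.9% of all genes were called lower. Log2 fold changes under -1 were reached by 5 of them, NFKB2, RELB, NFKBIA, NFKBIE and BIRC3, against 4.34% of all genes. The median over the 10 genes was -1.10, beside 0.08 over all genes tested. In bulk RNA, fewer cells that express a gene and less of its RNA per cell cannot be told apart.

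**Figure D1:**
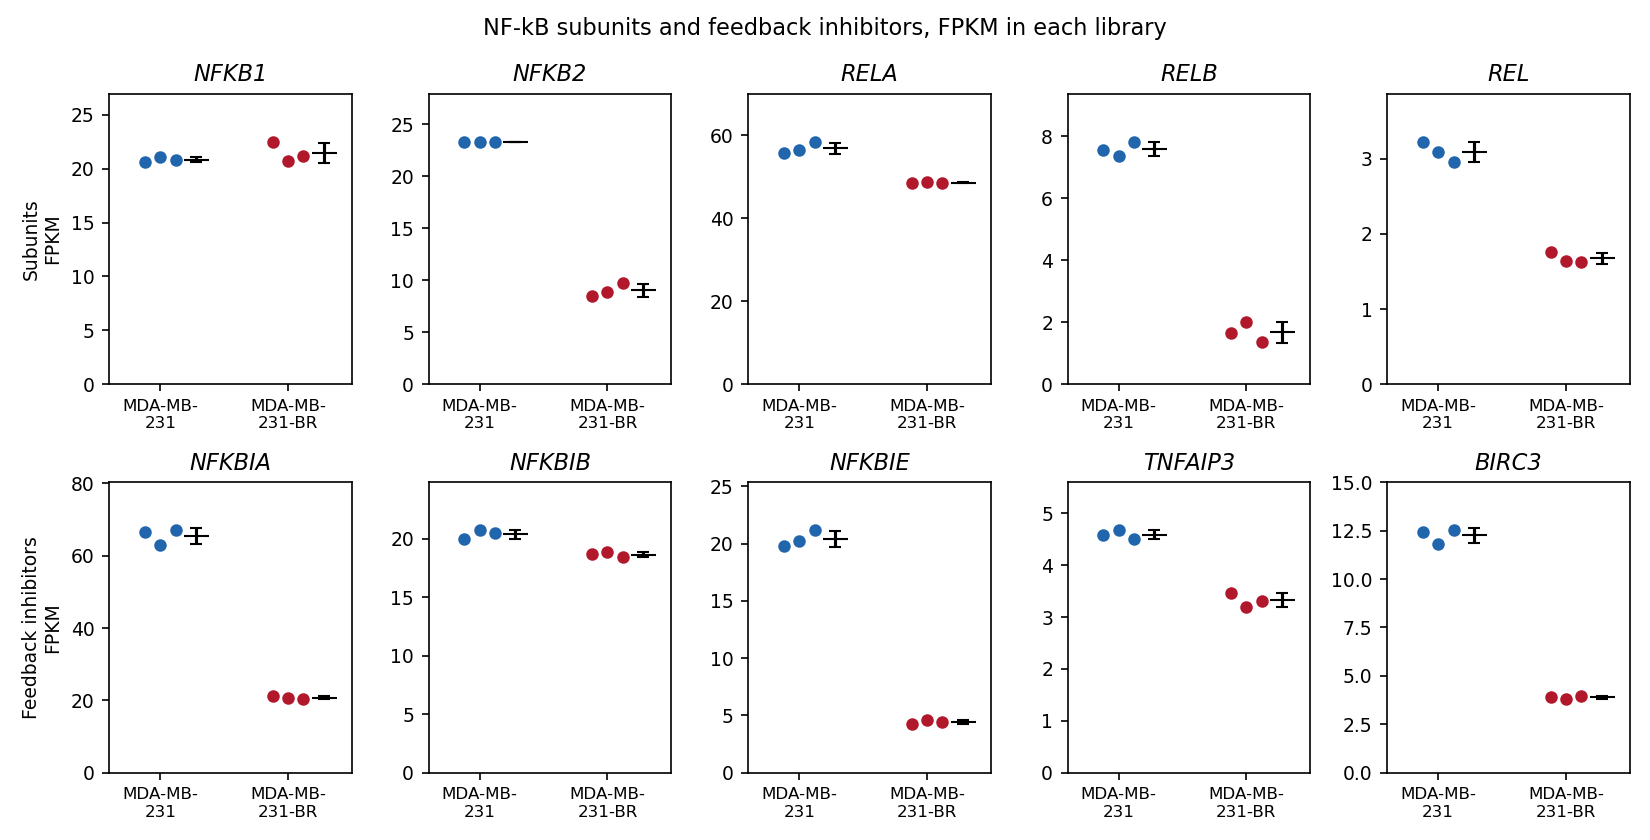
FPKM (vertical axes, each from 0) of the 10 genes in the 3 MDA-MB-231 libraries (blue) and the 3 MDA-MB-231-BR libraries (red), with subunits in the upper row and feedback inhibitors in the lower row. Black marks give the mean and SD. The libraries of the lines are apart for every gene but NFKB1, as they are for 78.4% of all genes tested. The widest gaps are those of RELB, NFKBIE, NFKBIA, BIRC3 and NFKB2.

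The subunits did not move together. RELA, the main activating subunit of the canonical branch, had 48.51, 48.71 and 48.43 FPKM in the MDA-MB-231-BR libraries and 55.81, 56.49 and 58.40 FPKM in the MDA-MB-231 libraries. The libraries did not overlap, as for 78.4% of all genes, but the difference was small, with a log2 change of -0.23 (SE 0.026, limma adjusted p = 1.8e-05). NFKB1, whose p105 product is the precursor of p50 and itself acts as an IkB, had 22.48, 20.74 and 21.18 FPKM in MDA-MB-231-BR cells and 20.59, 21.09 and 20.81 FPKM in MDA-MB-231 cells. These values overlapped, and the log2 fold change was 0.04 with a 95% confidence interval from -0.04 to 0.12 (adjusted p = 0.31). The sign of this estimate turned to -0.04 with median-of-ratios scaling and to -0.01 with quantile normalization of the libraries.

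The noncanonical pair showed the larger differences among the subunits. NFKB2, which encodes p100, the precursor of p52 and an inhibitor of RELB, had 8.49, 8.83 and 9.73 FPKM in MDA-MB-231-BR cells and 23.29, 23.27 and 23.30 FPKM in MDA-MB-231 cells. Every MDA-MB-231-BR library lay far under the MDA-MB-231 libraries, and the log2 fold change was -1.36 (SE 0.049, adjusted p = 4.2e-09). RELB, the partner of p52, had 1.65, 2.02 and 1.35 FPKM in MDA-MB-231-BR cells and 7.56, 7.35 and 7.81 FPKM in MDA-MB-231 cells. It had the widest relative spread of the 10 genes within MDA-MB-231-BR cells, yet the lines stayed well apart, with a log2 fold change of -2.13 (SE 0.118, adjusted p = 7.9e-08). The value for RELB was -2.41 after quantile normalization and -1.69 with 1 rather than 0.1 added to the FPKM. REL, the c-Rel subunit best known from lymphocytes, was low in both lines, at 1.76, 1.64 and 1.62 FPKM in MDA-MB-231-BR cells and 3.22, 3.09 and 2.96 FPKM in MDA-MB-231 cells. Its log2 fold change was -0.85 (SE 0.074, adjusted p = 2.5e-06). It was -1.18 after quantile normalization and -0.61 with 1 rather than 0.1 added to the FPKM.

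Among the 3 IkB genes, NFKBIA and NFKBIE fell and NFKBIB hardly differed. NFKBIA, the IkB that is resynthesised fastest after NF-kB activation, had 21.13, 20.73 and 20.35 FPKM in the MDA-MB-231-BR libraries and 66.55, 63.07 and 67.00 FPKM in the MDA-MB-231 libraries. It was 3.15-fold higher in MDA-MB-231 cells, a log2 fold change of -1.66 (SE 0.032, adjusted p = 5.8e-11). NFKBIA was one of the hub genes the study picked from these same libraries, so its difference is not independent of that choice. NFKBIE, encoding IkB epsilon, another inducible inhibitor, had 4.24, 4.62 and 4.42 FPKM in MDA-MB-231-BR cells and 19.83, 20.19 and 21.15 FPKM in MDA-MB-231 cells. This was the largest difference of the 10 genes, 4.53-fold higher in MDA-MB-231 cells (log2 fold change -2.18, SE 0.047, adjusted p = 1.2e-10). NFKBIB, encoding IkB beta, whose transcription responds little to NF-kB, had 18.65, 18.87 and 18.40 FPKM in MDA-MB-231-BR cells and 19.94, 20.70 and 20.46 FPKM in MDA-MB-231 cells. The libraries did not overlap, and the log2 fold change was only -0.13 (SE 0.031, adjusted p = 0.004).

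TNFAIP3 and BIRC3 act on ubiquitin chains upstream of the IkB kinases. TNFAIP3, which removes such chains from RIPK1 and related adaptors, had 3.46, 3.19 and 3.32 FPKM in MDA-MB-231-BR cells and 4.59, 4.67 and 4.51 FPKM in MDA-MB-231 cells. Its log2 fold change was -0.45 (SE 0.059, adjusted p = 4.7e-05), beside -1.66 for NFKBIA. It was -0.70 after quantile normalization and -0.37 with 1 rather than 0.1 added to the FPKM. BIRC3 encodes cIAP2, a ubiquitin ligase that promotes canonical signalling at the TNF receptor and, with TRAF2 and TRAF3, keeps NIK low. It had 3.93, 3.80 and 3.94 FPKM in MDA-MB-231-BR cells and 12.45, 11.82 and 12.51 FPKM in MDA-MB-231 cells, a log2 fold change of -1.63 (SE 0.047, adjusted p = 8.2e-10). The libraries of the lines were far apart for BIRC3 and apart by a smaller gap for TNFAIP3.

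**Figure D2:**
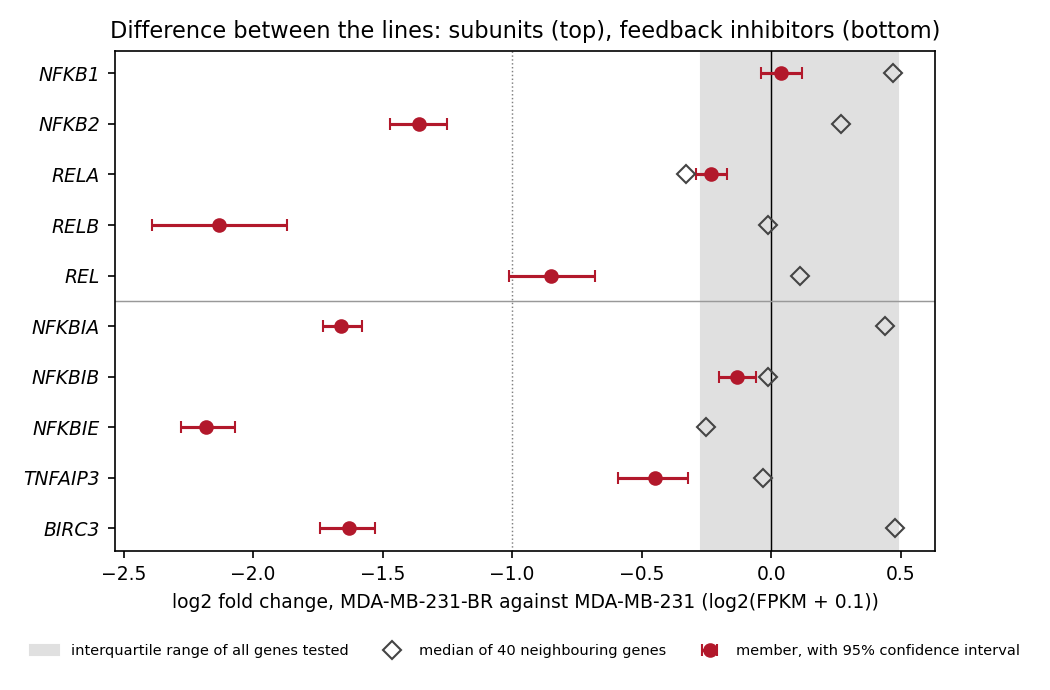
Log2 fold change of MDA-MB-231-BR against MDA-MB-231 cells (horizontal axis, log2(FPKM + 0.1)) for the 5 subunits (upper rows) and 5 feedback inhibitors (lower rows), with 95% confidence intervals from limma. Open diamonds give the median of 40 neighbouring genes, grey the interquartile range of all genes tested (-0.27 to 0.49), and the dotted line a log2 fold change of -1, beyond which NFKB2, RELB, NFKBIA, NFKBIE and BIRC3 lie.

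Against all 13465 genes, RELB and NFKBIE lay among the lowest values, with 1.12% and 1.07% of genes having a lower log2 fold change. For NFKBIA, BIRC3 and NFKB2 the share was 1.77%, 1.83% and 2.65%, whereas it was 27.8% for RELA, 34.6% for NFKBIB and 47.5% for NFKB1. Neighbouring genes on the chromosomes were compared as well. Over the 40 nearest genes whose mean FPKM reached 1, 20 on either side, the median log2 fold change was 0.48 around BIRC3 on chromosome 11 and 0.44 around NFKBIA on chromosome 14. It was 0.27 around NFKB2 on chromosome 10, -0.01 around RELB on chromosome 19 and -0.25 around NFKBIE on chromosome 6. NFKB1 on chromosome 4 had neighbours with a median of 0.47, above its own value, whereas the neighbours of RELA on chromosome 11, with -0.33, had a median at least as low as RELA itself (-0.23). BIRC2, which encodes cIAP1 and lies next to BIRC3, had a log2 fold change of -0.58 (adjusted p = 1.4e-08), from 92.06, 94.61 and 96.57 FPKM in MDA-MB-231 cells to 63.20, 62.22 and 63.30 FPKM in MDA-MB-231-BR cells.

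The promoters of the 10 genes were searched for the kappa B consensus, the sequence NF-kB dimers bind, on both strands of the 250 bases before the transcription start in RefSeq (GRCh38.p14). The first listed start of each gene was used, and any other starts were not searched. Sequences for 8 of the 10 genes were matched, RELB and NFKBIE being the others. The consensus was found in 5 of these 8, NFKB1, REL, NFKBIA, TNFAIP3 and BIRC3. It was found in 5.05% of all 27303 promoters of the same length and in 5.89% of the 10918 promoters of genes tested. NFKB1, which was not called, holds a match, and NFKB2, which had a log2 fold change of -1.36, holds none in this window. RELB and NFKBIE, the members with the largest differences, could not be searched. Whether matches go with the differences was not tested. The promoters of NFKBIA and BIRC3, the genes with matches whose differences were past 2-fold, are shown with that of NFKB1 for contrast, 5′ to 3′ on the strand of each gene and ending at the base before the start, with matches in capitals. Matches are a description of the letters and were not tested for binding.
NFKBIA, chr14:35404750-35404999, minus strand: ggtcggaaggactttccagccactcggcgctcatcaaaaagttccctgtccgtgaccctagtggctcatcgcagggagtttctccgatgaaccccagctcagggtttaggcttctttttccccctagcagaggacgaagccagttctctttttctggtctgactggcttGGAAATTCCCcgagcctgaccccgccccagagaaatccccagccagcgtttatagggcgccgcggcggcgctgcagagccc
BIRC3, chr11:102317234-102317483, plus strand: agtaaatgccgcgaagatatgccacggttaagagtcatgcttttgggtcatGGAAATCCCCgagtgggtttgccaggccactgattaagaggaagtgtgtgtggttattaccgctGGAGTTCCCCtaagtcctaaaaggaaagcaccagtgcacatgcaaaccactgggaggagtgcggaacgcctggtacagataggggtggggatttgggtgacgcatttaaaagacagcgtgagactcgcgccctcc
NFKB1, chr4:102501109-102501358, plus strand: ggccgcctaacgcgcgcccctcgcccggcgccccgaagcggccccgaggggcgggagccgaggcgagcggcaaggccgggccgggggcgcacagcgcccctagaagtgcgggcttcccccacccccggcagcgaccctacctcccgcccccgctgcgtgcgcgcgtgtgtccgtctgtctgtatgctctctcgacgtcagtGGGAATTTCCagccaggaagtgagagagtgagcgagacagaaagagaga
The NFKBIA match, read as GGGAATTTCC on the opposite strand, covers bases 81 to 72 before the start. The same letters stand on the coding strand of NFKB1 at bases 49 to 40. BIRC3 holds GGGGATTTCC at bases 199 to 190 and GGGGAACTCC at bases 135 to 126, both on the opposite strand. TNFAIP3 holds GGGACTTTCC and GGGGATTTCC close together at bases 67 to 58 and 55 to 46, also on the opposite strand. In REL the matches overlap on both strands, GGGAAATTCC from base 47 and GGGAATTTCC from base 46.

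The order of the levels differed between the lines. In MDA-MB-231 cells NFKBIA was the most abundant of the 10 transcripts (65.5 ± 2.15 FPKM, SD, n = 3), followed by RELA (56.9 ± 1.34), and their libraries did not overlap. In MDA-MB-231-BR cells RELA led (48.6 ± 0.144), and NFKBIA (20.7 ± 0.390) stood next to NFKB1 (21.5 ± 0.905), with overlapping ranges. NFKB2, NFKB1, NFKBIE and NFKBIB lay close together in MDA-MB-231 cells, at 23.3, 20.8, 20.4 and 20.4 FPKM, and the ranges of NFKB1 and NFKBIE and of NFKBIE and NFKBIB overlapped. In MDA-MB-231-BR cells they were spread out, with NFKBIB at 18.6, NFKB2 at 9.02 and NFKBIE at 4.43 FPKM. RELB, above TNFAIP3 and REL in MDA-MB-231 cells, shared the lowest place with REL in MDA-MB-231-BR cells, where their ranges overlapped.

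Ratios of transcripts within a library are not changed by multiplying that library by a factor, although quantile normalization can change them. The ratio of NFKBIA to RELA was 0.436, 0.426 and 0.420 in MDA-MB-231-BR cells, against 1.19, 1.12 and 1.15 in MDA-MB-231 cells. NFKBIA thus exceeded RELA in every MDA-MB-231 library and in 0 of the MDA-MB-231-BR libraries. NFKB2 to NFKB1, the precursors of p52 and p50, gave 0.378, 0.426 and 0.459 in MDA-MB-231-BR cells against 1.13, 1.10 and 1.12 in MDA-MB-231 cells. RELB to RELA was 0.0340, 0.0415 and 0.0279 in MDA-MB-231-BR cells, against 0.135, 0.130 and 0.134 in MDA-MB-231 cells. The differences of these ratios, on the log2 scale with 0.1 added, were -1.43, -1.40 and -1.90, the last -2.17 after quantile normalization. The lines did not overlap for any of the 3 ratios, and the exact 2-sided permutation test gave p = 0.1 for each, before and after adjustment over the 3, which is the smallest p that 3 libraries against 3 allow.

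**Figure D3:**
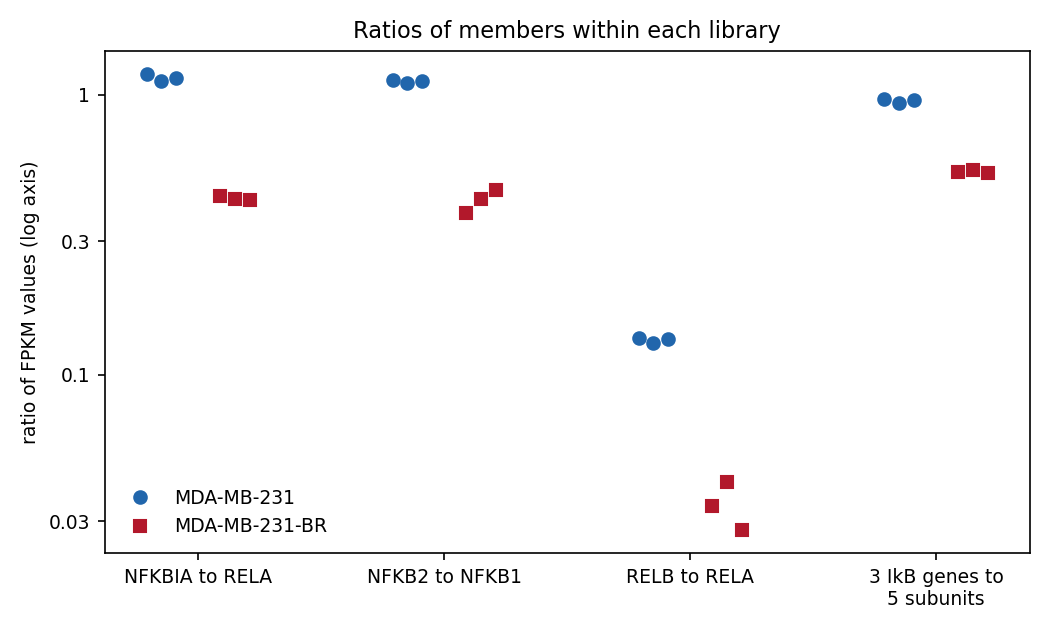
Ratios of FPKM values within each library (vertical axis, log scale) for NFKBIA to RELA, NFKB2 to NFKB1, RELB to RELA and the summed IkB genes to the summed subunits, in MDA-MB-231 (blue circles) and MDA-MB-231-BR libraries (red squares). All 3 libraries of MDA-MB-231-BR cells lie below all 3 of MDA-MB-231 cells for each ratio.

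Summed over the 5 subunits, the libraries held 82.89, 81.94 and 82.31 FPKM in MDA-MB-231-BR cells and 110.47, 111.29 and 113.28 FPKM in MDA-MB-231 cells. The 3 IkB genes summed to 44.02, 44.22 and 43.17 FPKM against 106.32, 103.96 and 108.61 FPKM. The IkB transcripts were thus 0.532 ± 0.00761 of the subunit transcripts (SD, n = 3) in MDA-MB-231-BR against 0.952 ± 0.0154 (SD, n = 3) in MDA-MB-231 cells. The makeup of the sums shifted as well. RELA made up 58.9% and NFKB1 26.1% of the subunit transcripts in MDA-MB-231-BR cells, against 50.9% and 18.7% in MDA-MB-231 cells. NFKB2 and RELB together with REL took up the rest, NFKB2 with 10.9% against 20.9%, RELB with 2.03% against 6.78% and REL with 2.03% against 2.77%. Among the IkB transcripts the share of NFKBIB was 42.6% in MDA-MB-231-BR cells against 19.2% in MDA-MB-231 cells. The sums and shares were chosen after the values had been seen and have no test.

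**Figure D4:**
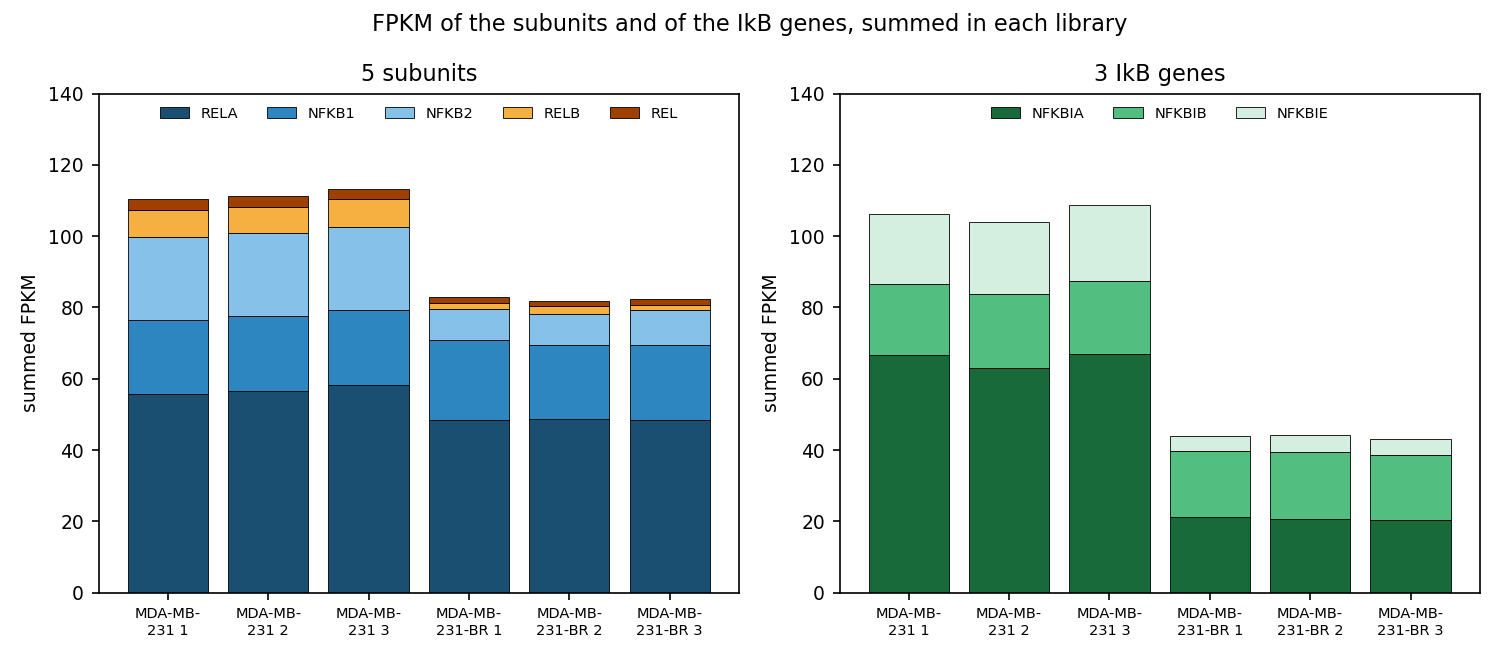
Stacked FPKM (vertical axes from 0) of the 5 subunits (left) and the 3 IkB genes (right) in each of the 6 libraries. The subunit sum is 82.4 FPKM on average in MDA-MB-231-BR and 112 FPKM in MDA-MB-231 libraries, and the IkB sum 43.8 and 106 FPKM.

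Of 10 kinases and their partners, 5 were called lower and 1 higher, where 32.9% of all genes were called lower and 44.4% higher, and the median was -0.10. The catalytic subunits of the IkB kinase differed little: CHUK had a log2 fold change of -0.11 (adjusted p = 0.073) and IKBKB one of -0.10 (adjusted p = 0.046). Neither result was stable. IKBKB was not called with any 1 of the 6 libraries left out (adjusted p from 0.063 to 0.14), and CHUK was called lower without MDA-MB-231 replicate 3 (-0.17, adjusted p = 0.0023) and under both scalings (-0.19 and -0.18). IKBKE, an inducible relative of these kinases, had 1.98, 2.38 and 2.30 FPKM in MDA-MB-231-BR cells and 6.79, 6.89 and 7.02 FPKM in MDA-MB-231 cells, a log2 fold change of -1.60. The scaffold subunit IKBKG had -0.95, a value that is uncertain because a near-identical pseudogene can share its reads. TAB3, an adaptor of the kinase TAK1, was the gene called higher, with 0.77. MAP3K14, which encodes NIK, was called lower by a small amount (-0.29, adjusted p = 0.00034, and -0.44 after quantile normalization).

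All 26 receptors and adaptors on the list were tested, of which 15 were called lower and 7 higher, with a median of -0.21. Of all genes 77.3% were called, 32.9% lower and 44.4% higher. The calls of CD40 (-0.14), TNFRSF11A (-0.19) and TRADD (0.20) were lost without 3, 4 and 4 of the libraries in turn. TRADD was not called under either scaling. TLR2, a receptor of bacterial lipopeptides, had 0.52, 0.52 and 0.32 FPKM in MDA-MB-231-BR cells and 2.23, 2.23 and 2.38 FPKM in MDA-MB-231 cells, a log2 fold change of -2.13 that was -1.18 with a pseudocount of 1. IRAK2, a kinase of the interleukin-1 receptor complex, fell from 9.0, 8.39 and 7.48 FPKM in MDA-MB-231 cells to 1.98, 1.76 and 1.81 FPKM in MDA-MB-231-BR cells, a log2 fold change of -2.10. IL1R1, the interleukin-1 receptor itself, was called higher, with 0.98, at 1.37, 1.22 and 1.23 FPKM against 0.59, 0.59 and 0.61, and with 0.51 at a pseudocount of 1 and 0.52 after quantile normalization. TRAF2 and TRAF3, the partners of cIAP1 and cIAP2, were called lower with -0.90 and -0.67, and the TNF receptor TNFRSF1A with -0.39. TRAF6 and MYD88, which relay interleukin-1 and Toll-like receptor signals, were called higher with 0.81 and 0.63.

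Ligands included some of the widest differences of the pathway. Of the 11 listed, 9 were in the table and 7 were tested. Of these 7, 5 were called lower and 2 higher, where 32.9% of all genes were called lower and 44.4% higher. TNF, LTA and LTB, all called lower, averaged 0.0133, 0.08 and 0.0167 FPKM in MDA-MB-231-BR cells and passed the filter only through MDA-MB-231 cells. With a filter at a mean of 1 FPKM, 2 ligands were called lower. The list median of -1.71 is the value of TNF, which depends on the pseudocount. Of the 2 called higher, TNFSF12 had a log2 fold change of only 0.15 and was not called under either scaling or without 3 of the libraries in turn. IL1A, encoding interleukin-1 alpha, had 0.41, 0.36 and 0.29 FPKM in MDA-MB-231-BR cells and 15.04, 14.29 and 13.69 FPKM in MDA-MB-231 cells, a log2 fold change of -5.00 (SE 0.101, adjusted p = 7.5e-11). The size of this value depends on the pseudocount and was -3.50 with 1 and -5.32 with 0.01. IL1B, encoding interleukin-1 beta, had 0.80, 0.82 and 1.02 FPKM against 13.75, 12.62 and 12.66 FPKM. IL18, also of the interleukin-1 family, went the other way, from 6.21, 5.68 and 6.32 FPKM in MDA-MB-231 cells to 73.66, 76.52 and 75.29 FPKM in MDA-MB-231-BR cells (log2 fold change 3.61). TNF was called lower but stayed under 0.3 FPKM in every library, and its log2 fold change of -1.71 became -0.33 with a pseudocount of 1 and -3.75 with 0.01.

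Of 15 other regulators of the pathway, 7 were called lower and 5 higher, near the 77.3% of all genes that were called, and the median was 0.06. BCL3, an IkB relative that works in the nucleus with p50 and p52 dimers, had 0.86, 0.98 and 1.09 FPKM in MDA-MB-231-BR cells and 6.57, 6.45 and 5.67 FPKM in MDA-MB-231 cells, a log2 fold change of -2.56. This value was -1.87 with a pseudocount of 1. NFKBIZ, another inducible nuclear IkB, fell by 1.59 on the log2 scale. TNIP1, an adaptor that works with A20, fell by 1.36, from 135.99, 133.80 and 137.70 to 53.10, 52.97 and 52.14 FPKM. CYLD, a deubiquitinase that restrains the pathway, was called higher with 0.50, and so was NKIRAS1, a small GTPase that protects IkB beta, with 1.05. TAX1BP1 and TNIP2, further adaptors, were called lower by little, with log2 fold changes of -0.17 and -0.18.

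Of 27 genes listed as targets of NF-kB, 25 were in the table and 23 were tested. They were called lower in 16 cases and higher in 5, with a median of -0.53, where 32.9% and 44.4% of all genes were called. Calls past a log2 fold change of 1 were lower for 9 and higher for 3, against 4.34% and 10.9% of all genes. Among the 3 higher, CCL2 had 0.24, 0.53 and 0 FPKM in MDA-MB-231-BR cells and 0 FPKM in every MDA-MB-231 library. Its log2 fold change of 1.47 was 0.31 with a pseudocount of 1. Its call was lost without a filter, without the trend and without 4 of the libraries in turn. CXCL1, a neutrophil-attracting chemokine, had 3.24, 3.26 and 3.93 FPKM in MDA-MB-231-BR cells and 106.96, 102.63 and 106.09 FPKM in MDA-MB-231 cells, a log2 fold change of -4.89. The chemokines CXCL8 and CXCL3 had -3.81 and -3.30, the cytokine IL6 had -3.64 and the adhesion molecule ICAM1 had -3.20. CXCL3 had 0.55, 0.83 and 0.36 FPKM in MDA-MB-231-BR cells, and its value ran from -3.60 to -2.23 over the alternative settings. CXCL1, CXCL8 and ICAM1 also belong to the hub genes that the study chose on these libraries. BCL2A1, an anti-apoptotic BCL2 relative and likewise a listed target, was called higher, at 14.31, 14.87 and 13.49 FPKM in MDA-MB-231-BR cells against 0, 0.15 and 0.18 FPKM in MDA-MB-231 cells (log2 fold change 6.23). With MDA-MB-231 cells near 0, the size of this value is set by the pseudocount and was 3.78 with 1 and 7.72 with 0.01. PTGS2, encoding cyclooxygenase 2, was called higher too, with 2.34, which was 1.00 with a pseudocount of 1, and the value of IL6 was then -2.16. SOD2 and BCL2L1, also targets, had -0.37 and -0.08, and BCL2L1 was not called after quantile normalization. In the promoter windows, 8 of the 21 targets with a sequence held the kappa B consensus, against 5.05% of all promoters. They were CXCL1, CXCL2, CXCL3, CXCL10, CCL20, IL6, CFLAR and IRF1. Of these, CXCL10 and CCL20 were below the filter, and CFLAR and IRF1 had log2 fold changes of only -0.42 and -0.53. Whether matches go with the differences was not tested.

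**Figure D5:**
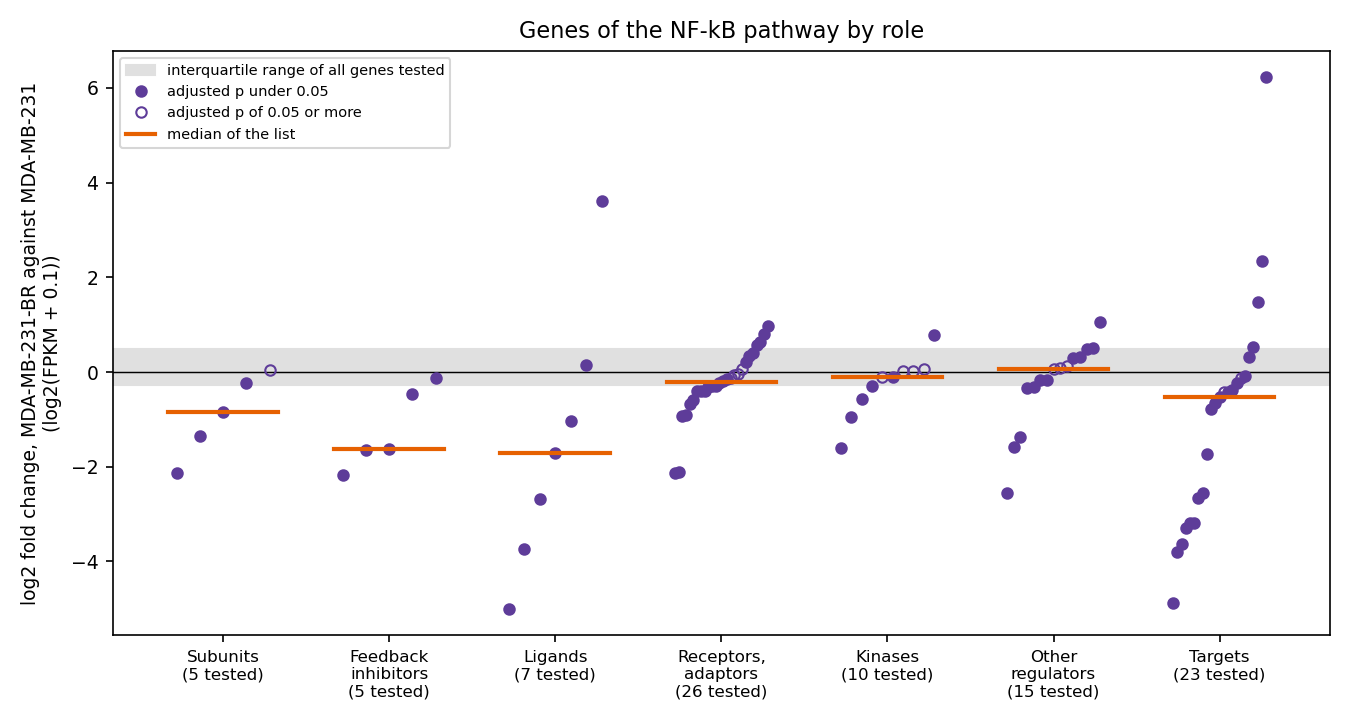
Log2 fold change of MDA-MB-231-BR against MDA-MB-231 cells (vertical axis, log2(FPKM + 0.1)) for each tested gene of the subunits, feedback inhibitors, ligands, receptors and adaptors, kinases, other regulators and targets. Filled points had an adjusted p under 0.05 from limma, orange lines are list medians, and grey is the interquartile range of all genes. Feedback inhibitors and ligands have the lowest medians (-1.63 and -1.71). The median of the feedback inhibitors is the value of BIRC3, whose product also promotes canonical signalling at the TNF receptor. The ligand median is the value of TNF, which is near 0 in MDA-MB-231-BR cells and depends on the pseudocount. BCL2A1 (6.23, with MDA-MB-231 near 0) and IL18 (3.61) stand highest.

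The genes whose profile over the 6 libraries was closest to that of NFKBIE, the gene with the largest difference of the 10, were IL11, POU2F2, MPP1, ACOXL and HTRA3. Their distances, on log2 values centred on each gene's mean, ran from 0.139 for IL11 to 0.192 for HTRA3. IL11, a cytokine of the interleukin-6 family, had 6.22 FPKM in MDA-MB-231-BR and 30.1 FPKM in MDA-MB-231 cells on average. POU2F2, a transcription factor best known from B cells, had 8.21 and 38.8 FPKM. ACOXL stayed under 0.5 FPKM on average in both lines. With 2 groups of libraries, likeness of this kind reflects little more than a similar difference between the lines.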

How the data were processed

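The authors sequenced poly(A) RNA on a BGISEQ-500, filtered the reads with SOAPnuke, aligned them with HISAT2 2.0.4 and, to a gene set, with Bowtie2 2.2.5 (versions and the build GRCh38.p12 as in the submitters' processing notes), and deposited FPKM with 2 decimals. The program that computed the FPKM is not given in the sources used here. DESeq2, the study's tool, was not used because it needs counts. FPKM were tested with limma 3.58.1 in R 4.3.3 (lmFit, eBayes with trend, no block), on log2(FPKM + 0.1) for genes with a mean of at least 0.1, after a check on simulated data. Libraries were grouped by title, since the number in the label's cell line field rises with the replicate. The files do not say that the replicates were separate cultures (the methods call them parallel), so p-values measure the spread between these libraries, which may be technical. Exact permutation tests used scipy 1.17.1.

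The members and lists were chosen with earlier results of these data known. Named besides the members were the 3 called genes with the largest absolute log2 fold change in each pathway list (6 of the targets) among those with a mean of at least 1 FPKM in either line, and the 5 genes nearest to the most changed member. Other list genes named were chosen after their values were seen. Gene order and promoter sequences came from RefSeq (GRCh38.p14). Strand is not stated for the library kit, so reads of overlapping antisense genes cannot be told apart. Alternatives were pseudocounts of 1 and 0.01, no filter, a filter at 1 FPKM, 2 scalings, eBayes without trend, a replicate block and each library left out.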

Additional observations from a re-analysis of the deposited data

How the results depend on the processing

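The log2 fold changes of 9 members kept their direction and call in all 14 alternatives. NFKB1, never called, turned to -0.04 with median-of-ratios scaling and -0.01 with quantile normalization. Quantile normalization moved the median of all genes tested from 0.08 to -0.06 and the share of higher calls from 57.4% to 45.6%. Relative to that median the members ran from -2.35 (RELB) to 0.05 (NFKB1), against -2.26 (NFKBIE) to -0.03 (NFKB1) without it. The RELB to RELA log2 ratio difference, -1.90, was -1.46 with a pseudocount of 1 and -2.17 after quantile normalization. A filter at a mean of 1 FPKM, which tests fewer genes, left 2 ligands called lower and 3 targets called higher. The count of ligands called higher was 1 with median-of-ratios scaling and with quantile normalization, and 1 to 2 with a library left out, 1 without MDA-MB-231-BR replicate 1, MDA-MB-231-BR replicate 3 or MDA-MB-231 replicate 1. For these the cause was not tested. The 18 pathway genes named for the largest differences of their lists kept direction and call wherever they were tested.

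Same-numbered libraries of the lines did not deviate together (r = 0.087, -0.04 and -0.106 over 11124 genes), so the numbers do not pair them. With a replicate block 4 subunits, 5 inhibitors and 5 members past 2-fold were called, as without it, and 4 kinases were called lower where the fit without it gave 5, the call lost being IKBKB (adjusted p = 0.061). No other count of calls changed with the block. FPKM carry no depth, so values under about 1 FPKM, such as those of TNF, are the least certain.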
